A study of Homo sapiens with 4 samples.

Results

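MIR4485 is a microRNA gene that lies inside MTRNR2L8, one of the humanin-like nuclear copies of the mitochondrial 16S ribosomal RNA gene RNR2. MIR4485 and 9 MTRNR2L genes (MTRNR2L1, MTRNR2L3, MTRNR2L4, MTRNR2L5, MTRNR2L6, MTRNR2L7, MTRNR2L8, MTRNR2L11 and MTRNR2L12) were looked up by Entrez identifier among 28775 promoter rows. Of these 10 genes, 1 had a row, MIR4485 (Entrez 100616263), and the 9 MTRNR2L genes were not analysed here. MIR4485 was selected on its measured difference between overexpression and control in these same counts, so its values in that comparison are given as a description with no test.

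Chromatin accessibility was measured by ATAC-seq, in which a transposase cuts open DNA and leaves sequencing adapters. All 4 libraries came from HEK293T cells, an established human embryonic kidney line that expresses the SV40 large T antigen, here wild type at their own MORC2 gene. The control group (n = 2) received lipofectamine, and the overexpression group (n = 2) was transfected, also with lipofectamine, with a plasmid that encodes MORC2 fused to a green fluorescent protein. MORC2 is an ATPase that compacts DNA, and the comparison asks how its overexpression affects accessibility. Whether control cells also received a plasmid, and whether replicates were separate cultures, is not given in the labels, so the spread between replicates may be technical. Each library pools many cells, so a change in all cells and a larger change in some of them cannot be told apart.

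Mitochondria keep a small circular genome that is not packed into nucleosomes and is present in many copies per cell, which makes it an abundant target of the transposase. Over evolution, pieces of this genome were copied into the nuclear chromosomes. The MTRNR2L genes are such copies of RNR2. They are called humanin-like after humanin, a short peptide encoded within RNR2 that is known for protecting cells from death signals. Because the copies resemble their source, short reads from the nuclear and the mitochondrial sequence can be hard to tell apart.

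The sequences shown here are those of the microRNA itself, taken from RefSeq on GRCh38.p14. The counts were taken over a wider promoter window and were not traced to these bases. How closely these sequences match mitochondrial RNR2 was not analysed here. The mature microRNA lies on the minus strand at chr11:10508277-10508296 and its hairpin precursor at chr11:10508270-10508326. The reads were aligned to another assembly, CHM13, on which the position was not analysed here. Capitals mark the seed (bases 2 to 8) in the mature form and the mature form in the hairpin.
hsa-miR-4485-3p: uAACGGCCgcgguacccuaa
MIR4485 hairpin: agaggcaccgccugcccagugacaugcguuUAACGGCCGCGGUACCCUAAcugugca
The mature sequence has 20 bases and occupies bases 31 to 50 of the 57 bases of the hairpin. Of 2545 mature human microRNAs in the table, 0 others had the same seed, and 1, hsa-miR-337-5p, had the same bases from 2 to 7. The mature sequence was 60.0% G and C, against a median of 50.0% over all mature microRNAs. Written as DNA and searched on both strands, the mature sequence occurred in 0 of 35116 RefSeq promoter windows of 300 bp. The longest run that the hairpin shared with any of those windows was 15 bases. With the hairpin of another microRNA gene it was 12 bases.

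Total counts per library ranged from 3734519 to 10255182, and 28266 promoters had at least 1 count. Mitochondrial promoters took 51.9% and 55.6% of counts in control replicates 1 and 2, against 74.7% and 73.8% in overexpression replicates 1 and 2. Their windows overlap along the small mitochondrial genome, so a fragment can be counted in several of them. Mitochondrial sums, library totals and these shares are thus of counts and not of fragments. Nuclear promoters summed to 4928862 and 3675088 counts in control, against 1826951 and 979895 in overexpression. Mitochondrial promoters summed to 5326320 and 4604440 counts in control, against 5384773 and 2754624 in overexpression. The nuclear totals thus separated by group, whereas the mitochondrial totals overlapped. Why the nuclear totals differed was not tested. The median nuclear promoter had from 23 to 98 counts. At the MORC2 promoter (Entrez 22880), the control libraries held 257 and 162 counts and the overexpression libraries 87 and 42, a log2 fold change of −0.16 (SE 0.155). The plasmid carries the coding sequence, so this promoter is no check of the transfection. All 5 HEK293T marker promoters examined (VIM, PAX2, LHX1, NEFL and NEFM) had counts in every library, from 12 to 723. All 5 promoters of blood and liver genes reported (PTPRC, CD3E, HBA1, ALB and APOA1) had counts too, from 1 to 198, so counts at these promoters did not set the line apart.

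MIR4485 had 1044 and 991 counts in control replicates 1 and 2, and 1034 and 566 counts in overexpression replicates 1 and 2. After TMM scaling, which sets the libraries on a scale where most promoters do not change, these were 74.8 and 96.5 CPM (scaled counts per 1000000) in control and 191.4 and 191.6 CPM in overexpression. Both overexpression libraries lay above both control libraries. The overexpression libraries were closer to each other than the control libraries were. They were also closer than their counting error, so their small SD is no measure of precision. The mean was higher with MORC2, going from 85.7 ± 15.4 (SD, n = 2) to 191.5 ± 0.140 (SD, n = 2) CPM, a log2 fold change of 1.17 (SE 0.0895). Over all promoters, 1.96% had an edgeR adjusted p under 0.05 in either direction and 0.778% in the higher direction. MIR4485 was among the latter, from which nothing is read, since it was selected on this difference. Overexpression libraries lay above both control libraries at 23.5% of all promoters.

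RNR2 (Entrez 4550), which encodes the 16S ribosomal RNA of the mitochondrial ribosome, was set beside it. Its row held 129221 and 111928 counts in the control libraries, against 129737 and 66664 in those with MORC2. In CPM after TMM scaling, this was 10079 ± 1167 in control against 23295 ± 1024 with MORC2 (SD, n = 2 each), a log2 fold change of 1.21 (SE 0.158). The fitted log2 fold changes of MIR4485 and RNR2 thus lay within their standard errors of each other. RNR1 (Entrez 4549), which encodes the 12S ribosomal RNA, had a log2 fold change of 1.20 (SE 0.135).

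For each 1000 RNR2 counts, MIR4485 had 8.08 and 8.85 counts in the control libraries, with 95% Wilson intervals from 7.60 to 8.59 and from 8.32 to 9.43. In the overexpression libraries it had 7.97 and 8.49, with intervals from 7.50 to 8.47 and from 7.82 to 9.22. The groups overlapped on this scale, and the values did not order by group. The mean was 8.47 ± 0.548 (SD, n = 2) for control libraries and 8.23 ± 0.368 (SD, n = 2) with MORC2, a ratio of 0.972. The intervals cover counting error only, as reads that carry no molecular identifier need not be independent.

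Against all mitochondrial promoter counts the picture was the same. Per 1000000 mitochondrial counts, MIR4485 had 196.0 and 215.2 in control and 192.0 and 205.5 in overexpression. The mean with MORC2 came to 0.967 of that in control, and the groups again overlapped.

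Against nuclear promoter counts without MIR4485, the groups separated. Per 1000000 nuclear counts, MIR4485 had 211.9 (95% interval from 199.4 to 225.1) and 269.7 (from 253.4 to 287.1) in control. It had 566.3 (from 532.8 to 601.9) and 577.9 (from 532.2 to 627.6) in overexpression. The intervals of the overexpression libraries overlapped each other and lay above both control intervals. The ratio of the group means was 2.38 (overexpression over control), and the control libraries differed from each other by more than their counting error.

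**Figure D1:**
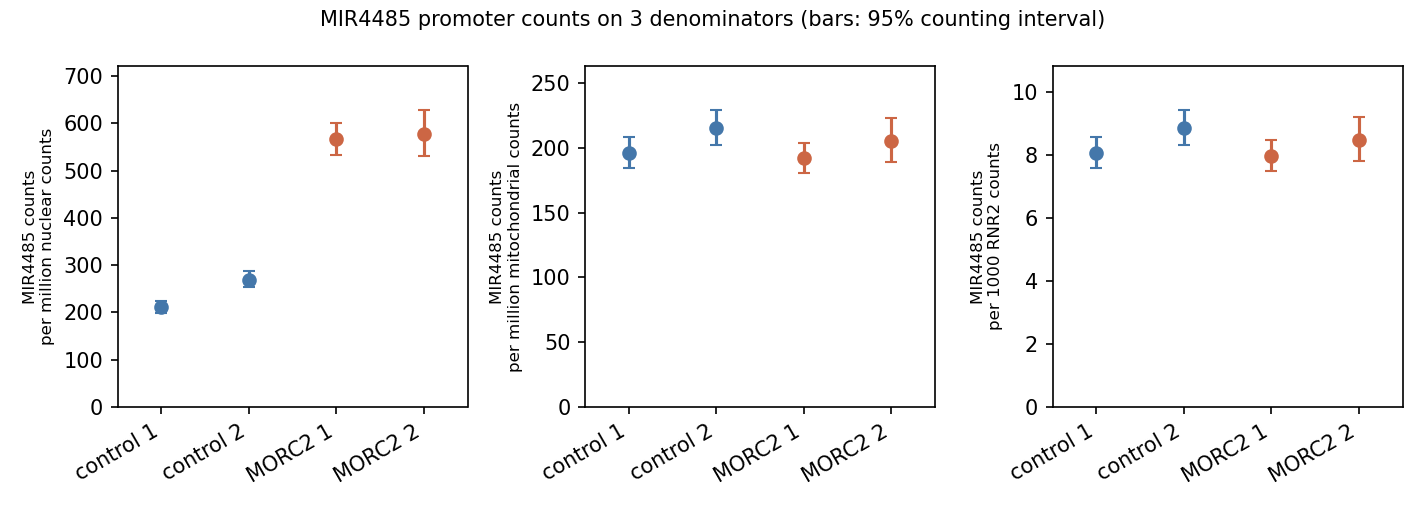
MIR4485 counts in each library per 1000000 nuclear counts (left), per 1000000 mitochondrial counts (middle) and per 1000 RNR2 counts (right), with all axes starting at 0. Points are single libraries (control in blue, MORC2 overexpression in orange) and bars are 95% Wilson counting intervals. The groups separate on the left, with 211.9 and 269.7 against 566.3 and 577.9, and overlap in the other panels.

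The position along the mitochondrial genome of the row used as the denominator made little difference. Each of the 37 mitochondrial rows, which encode ribosomal RNAs, transfer RNAs and subunits of the respiratory chain, was used in turn. The overexpression over control ratio of MIR4485 per count ranged from 0.947 for TRNF, the phenylalanine transfer RNA, to 0.996 for CYTB, cytochrome b of complex III, with a median of 0.965. The groups overlapped for 37 of the 37 rows. The windows of these rows overlap along the small genome, so the 37 values are not independent. The log2 fold changes of the rows themselves, under TMM scaling, ranged from 1.17 to 1.25 with a median of 1.22.

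The libraries can also be compared in pairs, including pairs within a group, which the choice of MIR4485 did not use. Relative to nuclear counts, MIR4485 was 1.27 times as high in control replicate 2 as in control replicate 1, and RNR2 was 1.16 times as high. In overexpression replicate 2 over 1, MIR4485 was at 1.02 and RNR2 at 0.958. Across the 4 pairs between groups, MIR4485 ratios ranged from 2.10 to 2.73 and RNR2 ratios from 2.23 to 2.71. In the 6 pairs, the ratio of MIR4485 to RNR2 ranged from 0.900 to 1.10, and the 2 pairs within groups gave 1.10 and 1.07. These 6 pairs share 4 libraries and are given as a description.

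**Figure D2:**
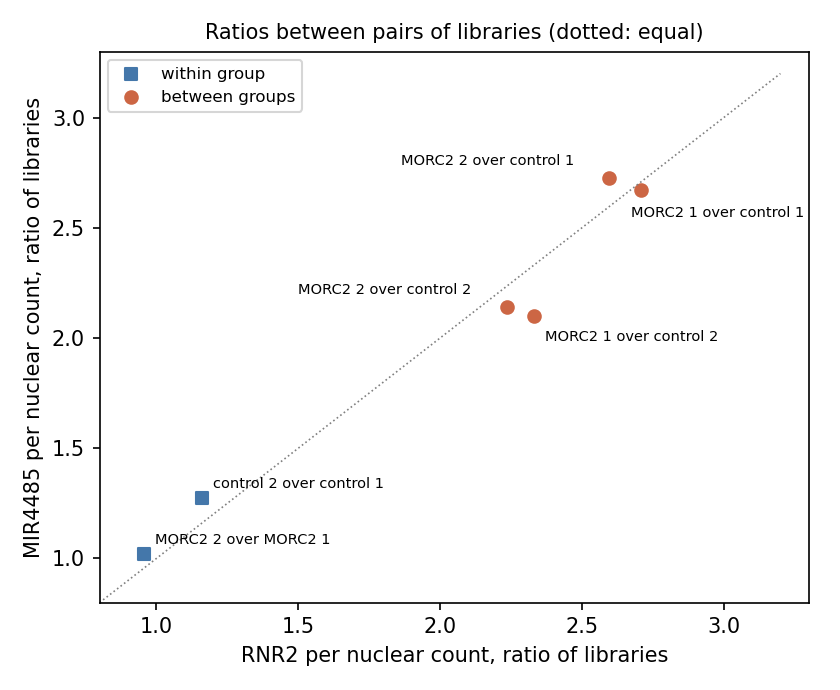
For each pair of libraries, the ratio of MIR4485 per nuclear count (vertical axis) against the ratio of RNR2 per nuclear count (horizontal axis). Squares are pairs within a group and circles pairs between groups; on the dotted line both ratios are equal. Pairs between groups sit from 2.10 to 2.73 on the vertical axis, and pairs within groups at 1.27 and 1.02.

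Over the 4 libraries, the profile of MIR4485 (log2 CPM minus its mean) was closest to those of mitochondrial rows. The root mean square difference from MIR4485 was between 0.0484 for TRNP, the proline transfer RNA, and 0.0776 for TRNH, the histidine transfer RNA, and it was 0.0602 for RNR2. Of the 14975 other nuclear promoters whose mean count reached 50, 0 came within the mitochondrial range, and the median was 0.660. The nearest was PVALB, which encodes the calcium-binding protein parvalbumin, at 0.188. It was followed by ACTA1 (skeletal muscle actin) at 0.220, ADGRE5 (an adhesion G protein-coupled receptor) at 0.236, LINC01783 at 0.240 and S100A16 (a calcium-binding protein) at 0.244. These 5 promoters had from 27 to 81 counts per library, so their profiles were less precise than that of MIR4485. The difference between the groups that selected MIR4485 makes up most of its profile, so its distance from nuclear promoters restates that selection. Its closeness to mitochondrial rows is likewise mostly a match in that difference.

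Abundance was then matched, since fold changes can depend on it. There were 119 other nuclear promoters whose mean control count was within 20% of that of MIR4485. Their log2 fold changes ran from −0.56 to 0.24, with a median of −0.22, and the 1.17 of MIR4485 lay above this range. The highest of the 119 was WDR74, a ribosome assembly gene. Among all 14976 nuclear promoters whose mean count reached 50, MIR4485 had the second highest log2 fold change, after HBB (beta-globin), and the next below it was LINC01783 at 0.92. These ranks rest on the comparison that chose MIR4485.

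**Figure D3:**
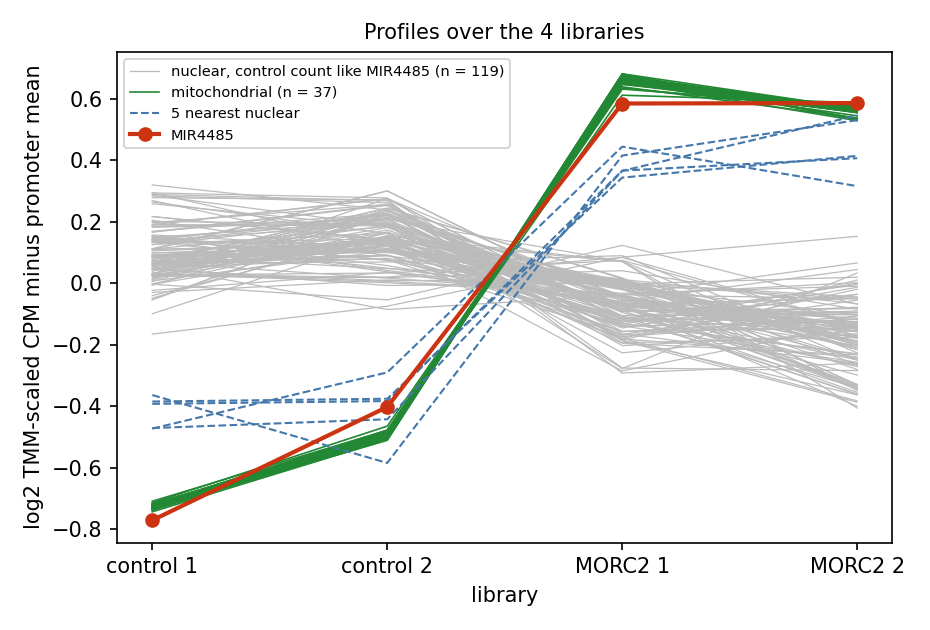
Log2 TMM-scaled CPM of each promoter minus its mean (vertical axis) in the 4 libraries (horizontal axis). MIR4485 is red, the 37 mitochondrial rows green, the 119 nuclear promoters of like control count grey and the 5 nearest nuclear promoters dashed blue; lines join the values of a promoter and libraries have no order. MIR4485 runs with the mitochondrial rows, within 0.0776 by root mean square difference. Most of its profile is the difference between the groups on which it was selected.

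MIR4485 was set beside other microRNA genes, since all promoter windows are defined with the same width. Of 1855 microRNA promoters with at least 1 count, MIR4485 had the highest level in control and in overexpression. In overexpression the next was MIR4638 at 65.4 CPM, against 191.5 CPM for MIR4485. The control libraries had 959 and 688 counts at MIR4638 and the overexpression libraries 363 and 188, a log2 fold change of −0.05 (SE 0.102). MIR191 and MIR425, which are made from 1 shared transcript, had log2 fold changes of −0.07 (SE 0.111) and −0.08 (SE 0.112). Promoters of microRNA genes often coincide with the promoter of a host gene, so these levels need not belong to the microRNA gene alone.

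Fold changes at the other microRNA promoters of fair depth were smaller, an order that rests on the comparison that chose MIR4485. Among 253 microRNA promoters whose mean count reached 50, the median log2 fold change was −0.11 and the lowest was −0.68. The next after MIR4485 was MIR4746 at 0.72 (SE 0.222), one of the least accessible of the 253 in control. In the fit over all promoters, 12 of the 1855 microRNA promoters rose and 5 fell past the threshold, against 0.778% and 1.18% of all promoters. MIR4485 is among the 12, and without it 11 of 1854 rose. DESeq2 called 2 microRNA promoters, or 1 without MIR4485, and 126 of all promoters.

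**Figure D4:**
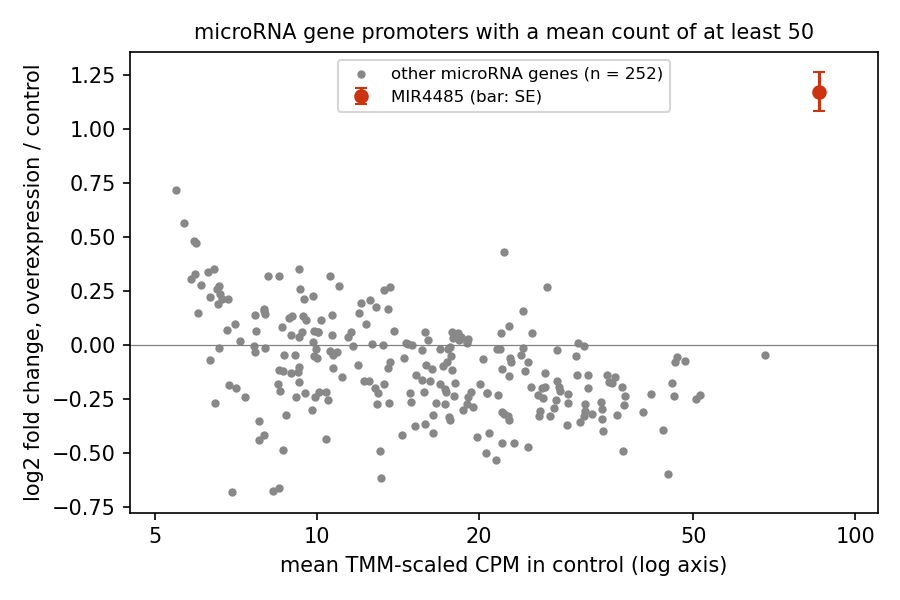
Log2 fold change of overexpression over control (vertical axis) against mean TMM-scaled CPM in control (horizontal log axis) for microRNA promoters whose mean count reached 50. Grey points are the 252 other microRNA genes and the red point is MIR4485 with its standard error. MIR4485, which was selected on this difference, is at 85.7 CPM and 1.17, and every other point lies at or below 0.72.

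A single other microRNA gene lies inside an MTRNR2L gene in the gene table, MIR1973 within MTRNR2L13 on chromosome 4. It was picked after its values were seen. Its mature sequence is shown to compare it with that of MIR4485, again with the seed in capitals, on the plus strand of GRCh38.p14 at chr4:116299750-116299768.
hsa-miR-1973: aCCGUGCAaagguagcaua
The seeds of the microRNAs differ. At MIR1973, the control libraries held 9 and 5 counts, and those with MORC2 held 0 and 1. A promoter inside another humanin-like copy was thus close to empty in all 4 libraries, whereas MIR4485 had from 566 to 1044 counts. Before scaling, the control libraries held the higher counts at MIR1973. With at most 9 counts in a library, nothing is read from a difference between the groups there.

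The nuclear surroundings of the listed genes were read from the nearest gene on each side that had a row, in the order of GRCh38.p14. AMPD3, which encodes an AMP deaminase, lies on one side of MIR4485. Control libraries held 22 and 13 counts there and MORC2 libraries 18 and 4, a log2 fold change of 0.85 (SE 0.425), and its groups overlapped. RNF141, a ring finger protein gene, lies on the other side. Its counts were 297 and 207 without MORC2 and 117 and 55 with it, a log2 fold change of −0.02 (SE 0.141), and its groups overlapped. Neither neighbour passed the threshold.

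Around all 10 listed genes there were 18 such neighbours, of which 17 had at least 1 count and FLJ36000, next to MTRNR2L1, had 0 in every library. By edgeR 0 of the 17 passed the threshold, where 1.96% of all promoters did, while 2 had an unadjusted p under 0.05. Of all 28266 promoters, 4561 had an unadjusted edgeR p under 0.05. DESeq2 called 0 of the 17, and 126 of all promoters. Of these neighbours, however, only EPHA6 was given an adjusted p by DESeq2 (0.705). For the others its 0 is therefore no result. The median log2 fold change of the 17 was −0.02, against 0.0059 for all promoters. The highest was MIR548F1, next to MTRNR2L5, at 1.16 (SE 0.652), with 10 and 4 counts in the control libraries against 9 and 2, so its groups overlapped. The 3 neighbours with the most counts lay closer to 0. EPHA6, an ephrin receptor gene next to MTRNR2L12, had a log2 fold change of −0.11 (SE 0.128). ZWINT, a kinetochore gene next to MTRNR2L5, had −0.13 (SE 0.133), and ZSCAN32, a zinc finger gene next to MTRNR2L4, had 0.05 (SE 0.130).

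Receptors and binding partners known for humanin formed a list of 10, all with counts. By edgeR 0 passed the threshold, where 1.96% of all promoters did. An unadjusted edgeR p under 0.05 was found for 2 of the 10, and for 4561 of all 28266 promoters. DESeq2 called 0 of the 10, and 126 of all promoters. It leaves promoters of low mean count without an adjusted p, and for any such gene the 0 is no result. The median log2 fold change of the 10 was 0.02, against 0.0059 for all promoters. Of the receptor genes, FPR2, a formyl peptide receptor, had 8 and 3 counts in the control libraries against 11 and 4, a log2 fold change of 1.95 (SE 0.625). IL27RA, a subunit of the humanin receptor complex, had 130 and 88 counts in the control libraries against 68 and 37, a log2 fold change of 0.48 (SE 0.185). The groups did not overlap in CPM for these and for 2 more of the 10, as for 48.4% of all promoters in either direction. CNTFR and IL6ST, the other subunits of that complex, had 0.06 (SE 0.192) and −0.27 (SE 0.137). Of the death regulators that humanin binds, BAX had −0.27 (SE 0.185), BID 0.10 (SE 0.154) and BCL2L11, which encodes BIM, −0.11 (SE 0.120). FPR3 had 0.82 (SE 0.732), with at most 10 counts in a library, IGFBP3 −0.07 (SE 0.175) and TRIM11 −0.01 (SE 0.107). A further 479 genes named as mitochondrial pseudogenes, other MTRNR2L genes or MIR12136 were looked up among the promoters with at least 1 count. Of these genes, 0 were found there.

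The size of the difference at MIR4485 depended on what the libraries were scaled to. With mitochondrial counts as the library size, the log2 fold change of MIR4485 was −0.05 (SE 0.113) and the median of all promoters was −1.23. Scaled to library totals, mitochondrial counts included, it was 0.41 (SE 0.0955) with a median of −0.76. Relative to the median of all promoters, the difference was 1.16 under TMM, 1.17 with library totals and 1.18 with mitochondrial counts. These scalings shift all promoters nearly alike, so that distance is fixed by their construction. The fit with loess scaling on abundance, at 1.42 (SE 0.106), gave the largest value of the scalings tried.

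**Figure D5:**
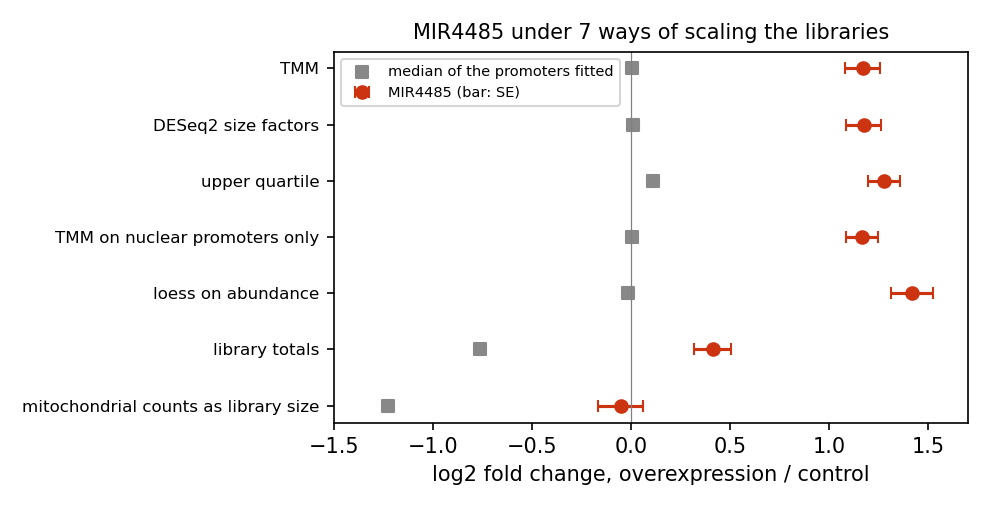
Log2 fold change of MIR4485 (red, bars are standard errors) and median of the promoters fitted (grey squares) under 7 ways of scaling the libraries. MIR4485 is between 1.17 and 1.42 in the upper 5, at 0.41 with library totals and at −0.05 with mitochondrial counts as the library size.

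The authors removed read pairs of low mapping quality before counting. The reads were not analysed here, so which of the fragments counted at MIR4485 could also be placed on the mitochondrial genome was not tested. Relative to nuclear counts, mitochondrial and MIR4485 counts were both higher in the overexpression libraries than in the control libraries. The raw counts of either did not follow the group. An effect of MORC2 and one of the plasmid that carries it cannot be told apart.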

How the data were processed

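ATAC-seq libraries of HEK293T cells were compared between control (n = 2) and MORC2 overexpression (n = 2), grouped by their labels. The authors trimmed paired reads, aligned them with bowtie2 to CHM13, removed pairs of low mapping quality and duplicates (Picard), and deposited whole-number counts per promoter (a window of 2 kb around the start site, fragments placed by midpoint), not normalised. That the table counts the whole window is an assumption. Their peak lists were not used, since genes were not placed on CHM13 here.

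Symbols came from RefSeq (GRCh38.p14) by Entrez identifier and named 28763 of 28775 rows. Promoters with at least 1 count were fitted with edgeR 4.0.16 (R 4.3.3; TMM, legacy quasi-likelihood F-test, two-sided, no covariate) and adjusted by Benjamini-Hochberg over all 28266, with a threshold of 0.05. The planned filter was none, as low members were to be kept. The prior degrees of freedom were infinite, so promoters of similar abundance shared their dispersion. Standard errors came from the same fit. Profiles used a prior count of 0.5. Intervals are 95% Wilson. Alternatives were DESeq2 1.42.0, other scalings, filters and thresholds, a replicate block and leaving out each replicate. Chi-square per degree of freedom over nuclear promoters was 1.25 between control replicates and 1.12 between overexpression replicates, above the sampling noise in each group. All 4 libraries were therefore counted as separate, but this does not show that they came from separate cultures. The fit was tested on simulated data. Total counts per library ranged from 3734519 to 10255182.

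One planned marker gene is not reported here. The genes, lists and tests were chosen with earlier results of these data known. Named genes were all listed members, RNR1 and RNR2, neighbours, the 5 nearest nuclear profiles and the lists given. The promoters of like control count, the microRNA genes, MIR1973 and the mitochondrial rows other than RNR2 as denominators were added after the data were seen.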

Additional observations from a re-analysis of the deposited data

How the results depend on the processing

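MIR4485 was selected on this contrast, so its calls are no sign of stability and are given as a description. It was past the threshold in 16 of the 17 alternatives, the exception being mitochondrial counts as the library size, which gave 0 members past it and a log2 fold change of −0.051, against 1.17; that scaling removes by construction what MIR4485 shares with the mitochondrial rows. In the other 14 fits the direction was kept. Without each replicate in turn the log2 fold change ranged from 0.99 (without control replicate 1) to 1.36 (without control replicate 2). The ratio of MIR4485 per RNR2 count (0.972) was 2.38 with nuclear counts as the denominator, which is another quantity. It ranged from 0.930 to 1.02 without each replicate in turn and from 0.947 to 0.996 with the other mitochondrial rows, a choice made after seeing the data.

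Replicate numbers were shared between groups, but libraries with the same number deviated from their group means with a correlation of 0.05 over 14976 promoters, so with 2 pairs they were not taken to pair the libraries. With the replicate block the log2 fold change was 1.18, 1 member passed, and 457 promoters in all passed.

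Over all promoters, 554 passed (39.7% higher). The number was 16396 (0.329% higher) with library totals, 20316 (0.0197%) with mitochondrial counts as the library size, 99 (60.6%) with loess, 126 with DESeq2, 368 (51.1%) where all 4 libraries had at least 10 counts, 1199 and 170 at adjusted p under 0.1 and 0.01, and 73 to 190 without a replicate. Upper-quartile scaling gave 467 (79.9%). The causes were not tested. With 2 libraries a group, and 566 counts in the shallowest, the precision of a single MIR4485 value is limited by counting.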
